A study of Phyllostachys edulis with 12 samples.

Results

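Moso bamboo (Phyllostachys edulis) is a woody grass that grows to the height of trees. Its seedlings were compared after 24 h at -2 °C with seedlings that had no cold treatment. The comparison rests on 2 libraries at 24 h and 3 control libraries, chosen by their sample labels, out of 11 libraries that could be matched to labels. The seedlings were 3 weeks old, at the 3-leaf stage, and came from a green house. The 24 h seedlings stood in a freezing chamber with the light and day length of the controls. The other 6 libraries came from seedlings held at -2 °C for 0.5 h or 1 h, with 3 libraries each. The labels give no genotype, and they do not say whether a library holds 1 plant or a pool. RNA came from whole seedlings, so fewer cells of a type and less RNA per cell cannot be told apart, and the labelled tissue could not be checked against marker genes because the table gives identifiers without names.

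A temperature just under the freezing point of water stiffens membranes, slows enzymes and can start ice formation in the spaces between plant cells, which draws water out of them. In the grasses and thale cress studied most, the first hours of cold bring calcium signals and transcription factors of the CBF/DREB family, which switch on genes for dehydrins, sugar synthesis and membrane lipids. A day in the cold is known in those plants as a phase of acclimation, in which stores of soluble sugars build up while growth and photosynthesis slow. None of these genes can be pointed to by name here. The transcripts are therefore described by how high they were, how far they moved, and how well the libraries of a group matched each other.

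Totals per library lay within 29304206 to 34543663 counts over all 11 libraries, with 29953291 and 32510246 counts at 24 h. A count was found for 40595 and 41002 genes at 24 h and for 40840 to 41340 genes in the controls. The table lists 47091 genes, and 39640 of them passed the filter on low counts. Levels are given as CPM, which are counts scaled by the library total times its TMM factor (a factor per library that sets the bulk of the genes to a common level). CPM thus do not sum to a common total in each library. All tested genes summed to 112% and 108% of the nominal total at 24 h, and to 95.7% to 102% in the controls. The TMM factors were 0.892 and 0.923 at 24 h and 0.983 to 1.04 in the controls, so the factor moved with the groups. Its part in the split of the calls is given beside that split.

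The distance between the groups was larger than the spread within them, at every level of abundance. For each gene the absolute log2 ratio of CPM + 0.5 was taken between pairs of libraries. Its median over all tested genes was 0.22 between the pair of 24 h libraries and 0.23 to 0.25 between control libraries. Between a 24 h and a control library it was 0.30 to 0.35. More than a 2-fold gap separated the 24 h pair for 5.24% of genes, control pairs for 4.62% to 4.84%, and a 24 h from a control library for 10.2% to 11.6%. Abundant genes were measured more tightly. Above a mean log2 CPM of 5 the median ratio was 0.13 for the 24 h pair, 0.15 to 0.18 for control pairs and 0.19 to 0.27 between the groups. Below a mean log2 CPM of 1 these values were 0.35, 0.34 and 0.43 to 0.45.

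**Figure D1:**
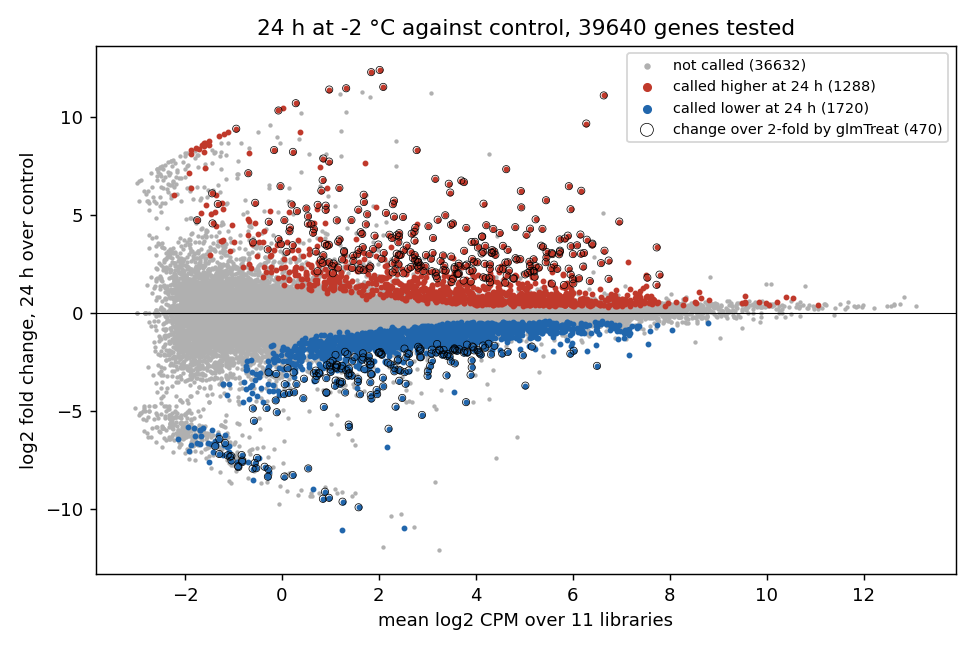
Each point is a gene, with the mean log2 CPM over 11 libraries on the x axis and the log2 fold change of 24 h over control on the y axis. Red points are the 1288 genes called higher, blue points the 1720 called lower, grey points those not called, and black rings the 470 genes whose change was tested to be over 2-fold. The smallest changes that were called shrink toward the right, where genes are counted more deeply.

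After 24 h in the cold, 3008 genes differed from the control, which is 7.59% of those tested. Of them 1288 rose (3.25%) and 1720 fell (4.34%). This order was turned by limma-voom, with 1304 higher and 1088 lower, and widened with library size alone, with 858 higher and 2963 lower. The test was edgeR's quasi-likelihood test with Benjamini-Hochberg adjustment, and a gene was called at an adjusted p under 0.05. At an unadjusted p under 0.05 there were 4150 higher and 5000 lower genes. A call could be small: 562 of the risen and 629 of the fallen genes changed by less than 2-fold, and the smallest called changes were 1.26-fold up and 1.30-fold down. The risen genes had the longer upper tail. Their fold change was 2.27 at the median, 5.06 at the 75th percentile and 46.5 at the 95th. The fallen genes had a 2.32-fold change at the median, 3.57 at the 75th percentile and 18.3 at the 95th. Fold changes were larger among scarce genes. Below a mean log2 CPM of 1 the median log2 fold change was 3.48 for risen and -2.68 for fallen genes. Above 5 these medians were 0.70 and -0.75. The number called rested on single libraries and on the tool. It was 1281 without 24 h replicate 2, 1357 without 24 h replicate 1, 1873 and 1978 without control replicates 2 and 1, 1948 in a fit of the 24 h and control libraries alone, and 4899 with DESeq2.

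A smaller group of genes changed by more than 2-fold in a test of that size itself. Here edgeR's glmTreat asks whether the change exceeds 2-fold, not whether it differs from 0. It called 470 genes (1.19% of those tested), 278 higher (0.701%) and 192 lower (0.484%). The 278 risen genes had a median level of 27.5 CPM at 24 h and 3.14 CPM in the controls, and a median fold change of 8.73. The smallest change among them was 2.71-fold. The 192 fallen genes had medians of 0.582 CPM at 24 h and 4.37 CPM in the controls, with a median fold change of 7.39 and a smallest of 2.96. By class of mean log2 CPM (under 1, 1 to 3, 3 to 5, over 5), 47, 82, 85 and 64 of these genes were higher. In the same order 55, 83, 49 and 5 were lower. Among all genes called against 0, 328 risen and 729 fallen genes had fitted changes of 2 to 4-fold. At 4 to 16-fold the numbers were 265 and 264, and at 16-fold or more 133 and 98. In the test of a change over 2-fold, risen genes outnumbered fallen genes in total, but not below a mean log2 CPM of 3. This order was not kept under library size alone, which gave 242 higher and 266 lower. Risen genes stayed ahead when only the 24 h and control libraries were fitted, with 293 higher and 110 lower. With the replicate number as a block there were 247 higher and 124 lower.

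The libraries behind the calls were nearly always separate. For 1284 of the 1288 risen genes, or 99.7%, both 24 h libraries lay above all 3 controls, against 20.0% of all tested genes. For all 1720 fallen genes both lay below all controls, against 20.8% of tested genes. The calls were made on these same libraries, so much of this separation follows from the choice of genes. The 0.5 h and 1 h libraries entered these calls through the shared estimate of spread and not through the contrast. Among the risen genes, 1144 (88.8%) were higher in both 24 h libraries than in any of the other 9 libraries, against 10.8% of tested genes. Among the fallen genes, 1662 (96.6%) were lower in both than in any of the other 9, against 11.3% of tested genes. The margin was often narrow. The closest 24 h and control libraries were at least 2-fold apart for 551 risen and 681 fallen genes, and under 1.5-fold apart for 484 risen and 487 fallen genes.

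The largest fold change open to naming belonged to PH01001480G0410. It had 450.1 and 387 CPM at 24 h, and 1.28, 0.0873 and 0.134 CPM in control replicates 1 to 3. Both 24 h libraries thus stood far above every control, while the control level itself rested on 43, 3 and 4 counts. The log2 fold change of 9.68 had an SE of 0.68 (edgeR adjusted p = 2.1e-05), with means of 418 ± 44.7 CPM at 24 h (SD, n = 2) and 0.499 ± 0.673 CPM in the controls (SD, n = 3). Without control replicate 1, the highest control, the log2 fold change was 11.84. It lay at 1.48 to 3.17 CPM in the 0.5 h libraries and at 2.06 to 3.63 CPM in the 1 h libraries.

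PH01000236G0450 had the largest gain in CPM of all called genes, with a modest fold change. Its level was 2065 and 2454 CPM at 24 h, against 1285, 1086 and 1601 CPM in the controls. The groups did not overlap, although the lowest 24 h library and the highest control were close beside the spread among the controls. Its log2 fold change of 0.77 had an SE of 0.17 (edgeR adjusted p = 0.019). The call was lost without control replicate 1 (edgeR adjusted p = 0.061), without control replicate 2 (0.064), without 24 h replicate 2 (0.15) and with only the 24 h and control libraries in the fit (0.074). Its log2 fold change stayed within 0.61 to 0.93 over all alternatives run.

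Among the falls, PH01000320G0510 had the largest fold change open to naming and PH01001888G0390 the largest loss in CPM. PH01000320G0510 had 0.674 and 0.934 CPM at 24 h, and 17.1, 16.1 and 23.5 CPM in the controls. That is 18 and 28 counts against 555 to 701 counts, so a low but clear signal was left. Its log2 fold change of -4.54 had an SE of 0.27 (edgeR adjusted p = 7.9e-06). PH01001888G0390 had 86 and 72.5 CPM at 24 h, and 224, 197 and 288 CPM in the controls. Both 24 h libraries lay below every control, while the 0.5 h and 1 h libraries spread from 128 to 263 CPM, some below and some within the range of the controls. For this gene the log2 fold change of -1.57 had an SE of 0.32 (edgeR adjusted p = 0.013), and the call was lost without 24 h replicate 1 (edgeR adjusted p = 0.069) or 2 (0.11).

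**Figure D2:**
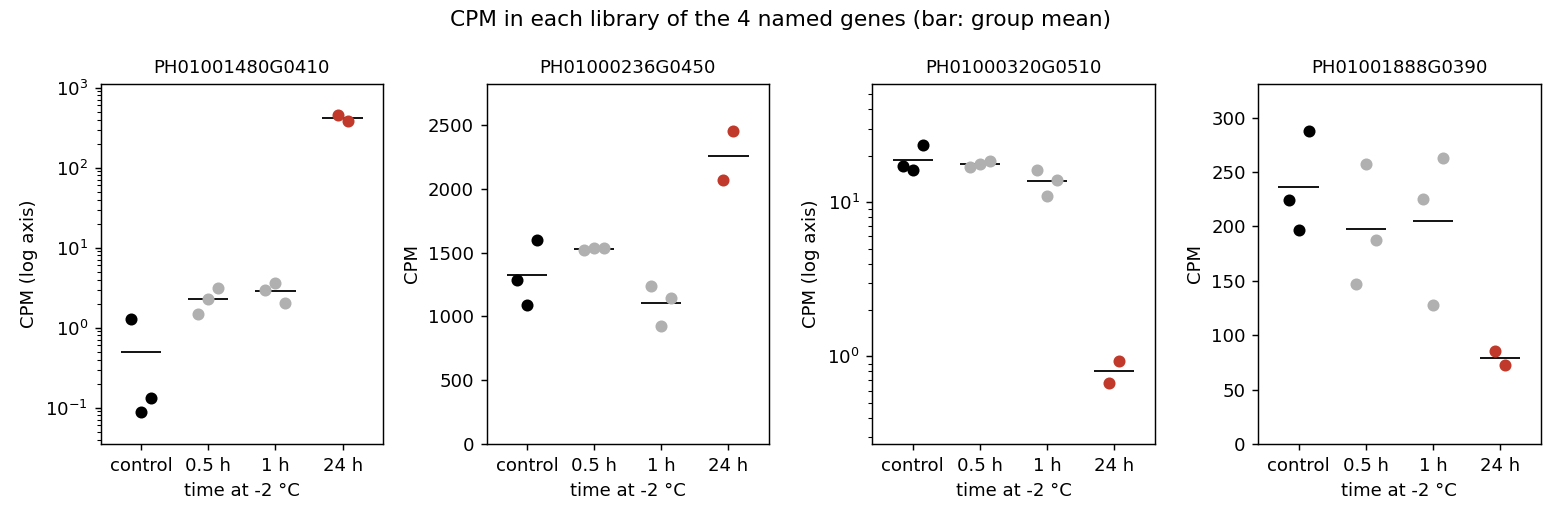
CPM of the 4 named genes in each library, by time at -2 °C. Points are libraries, black lines group means, and the panels of PH01001480G0410 and PH01000320G0510 have log axes. The red 24 h points lie outside the range of all other libraries in each panel, and the control points of PH01001480G0410 span 0.0873 to 1.28 CPM.

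The other genes among the 10 largest gains were of unlike kinds. Those at ranks 2, 4, 5, 7 and 9 were abundant genes with log2 fold changes of 0.43 to 0.89 (edgeR adjusted p = 0.015 to 0.046). At rank 4, for one, the levels were 2752 and 2511 CPM at 24 h against 1812 to 2195 CPM in the controls. All these values are on the TMM scale. With library size alone the median log2 fold change of all tested genes was -0.176, against -0.012 with TMM. Ranks 3 and 8 had far larger fold changes. The gene at rank 3 by gain in CPM had 861 and 749 CPM at 24 h against 83.7, 81.1 and 71.4 CPM in the controls. Its log2 fold change of 3.35 had an SE of 0.20 (edgeR adjusted p = 7.9e-06). The gene at rank 8 had 557 and 499.7 CPM at 24 h against 20.2, 18.5 and 23.4 CPM in the controls, a log2 fold change of 4.67 (SE 0.25). In both, the 24 h libraries were close to each other and far from the controls. The 10 genes with the largest fold changes among called genes at a mean log2 CPM of 3 or more had log2 fold changes of 6.23 to 11.11. The value of 11.11 belongs to the gene at rank 6 by gain in CPM. It was high in 1 of the 24 h libraries alone and is described further on. These genes were singled out by rank after their values were seen.

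On the TMM scale, gains were held by fewer genes than losses. The risen genes together stood 42296 CPM higher at 24 h than in the controls, and 94 of them (7.30% of the risen genes) made up 50% of that gain. The 10 largest made up 14.7%. The fallen genes together stood 14309 CPM lower, and 236 of them (13.7%) made up 50% of the loss. A level of 100 CPM or more in the higher group was reached by 188 risen and 42 fallen genes, and 1000 CPM by 10 risen genes and no fallen gene. The gain includes 547 CPM from a gene with 0.112 and 1095 CPM in the 24 h libraries. These sums describe genes chosen on the same libraries, on the TMM scale. On that scale all tested genes summed to 112% and 108% of the nominal total at 24 h, against 95.7% to 102% in the controls. The part of scaling in the gain and the loss was not tested.

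The direction of the calls changed with abundance. Below a mean log2 CPM of 1, 188 genes rose and 273 fell, and from 1 to 3 the numbers were 284 and 608. From 3 to 5, 419 rose and 643 fell, and above 5 the order turned, with 397 risen and 196 fallen. The share of calls that were higher was thus 40.8%, 31.8%, 39.5% and 66.9% from the lowest to the highest class, beside 42.8% over all calls. The turn above 5 was seen with RLE factors (69.6%) and upper-quartile factors (55.0%), while with library size alone the share was 31.3%, more fallen than risen. With library size alone the median log2 fold change of all tested genes was -0.176, against -0.012 with TMM, and the share of all calls that were higher was 22.5%. In each of these scalings the share was higher above 5 than from 1 to 3. With library size alone it was 30.1% below 1, near the 31.3% above 5.

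**Figure D3:**
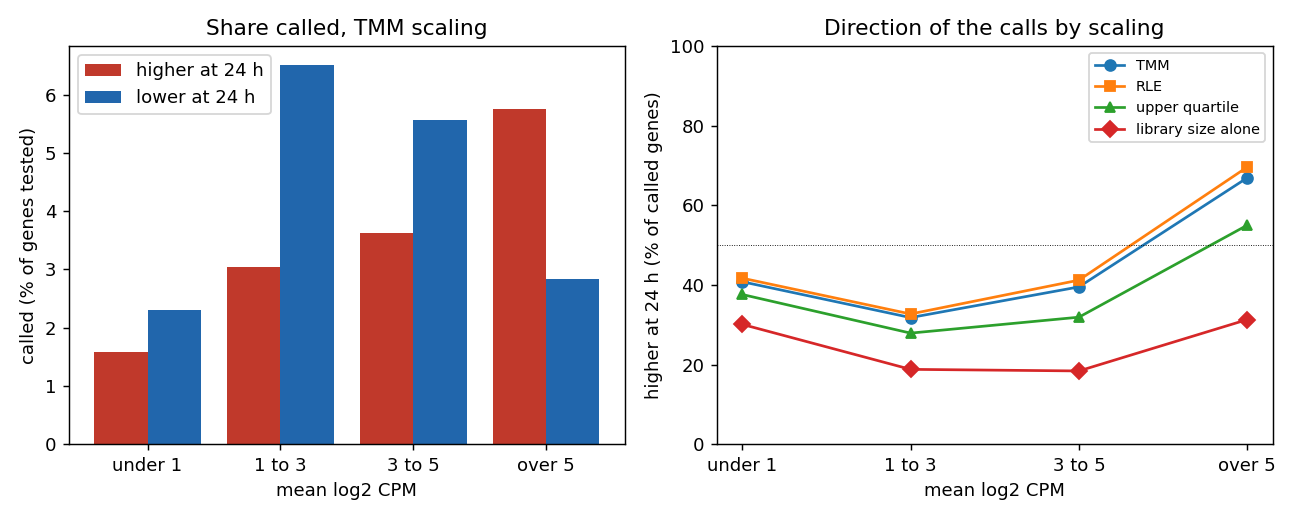
Left, the percentage of tested genes called higher (red) or lower (blue) at 24 h in 4 classes of mean log2 CPM. Right, the percentage of called genes that were higher, by class and scaling, with a dotted line at 50%. The share rises to 66.9% above a log2 CPM of 5 with TMM. With library size alone it is 30.1%, 18.8%, 18.4% and 31.3% from the lowest to the highest class.

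Precision also followed abundance. The median standard error of the log2 fold change was 0.73 below a mean log2 CPM of 1, 0.30 from 1 to 3, 0.18 from 3 to 5 and 0.14 above 5. The smallest change that was called was 2.04-fold in the lowest class, 1.45-fold in the next and 1.26-fold in each of the other two. At 2-fold or more, 1817 genes were called and 4736 were not. The called genes had a median of 4.40 CPM over the 24 h and control libraries, and those not called 0.524 CPM. In 2876 of the 4736 not called, the 24 h and control libraries did not overlap. Over all tested genes, both 24 h libraries lay above every control in 20.0% and below every control in 20.8%. The 4736 were picked by their change between these same libraries, which favours such gaps.

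The most abundant transcripts of the seedling kept their place. The 10 genes with the highest control level were also the 10 highest at 24 h, and 90 genes were shared by both lists of 100. The 10 had log2 fold changes of 0.28 to 0.81 under TMM and 0.12 to 0.66 with library size alone. Of them edgeR called 0, while 8 were higher and 0 lower at an unadjusted p under 0.05, and DESeq2 called 3 higher. Of the 100 most abundant control genes, edgeR called 7 higher and 0 lower, against 3.25% and 4.34% of all tested genes. At an unadjusted p under 0.05, 51 were higher and 0 lower, and DESeq2 called 31 higher and 0 lower. Their log2 fold changes ran from -1.29 to 1.37.

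Some genes were measurable at 24 h and near silent in the controls. In all, 43 genes reached at least 5 CPM in each 24 h library from below 1 CPM in every control. Their mean level at 24 h was 5.58 to 70.1 CPM, with a median of 9.78 CPM, and their counts summed over the controls ran from 0 to 70 with a median of 29. Of these, 42 were called and 37 passed the test of a change over 2-fold, beside 7.59% and 1.19% of all tested genes. They were chosen by a gap between the libraries that the test uses, so these calls were nearly fixed by the choice. Many were above 1 CPM early: 32 reached it in at least 1 of the 0.5 h libraries and 18 in at least 1 of the 1 h libraries, while 11 stayed below 1 CPM in all 6. The reverse, below 1 CPM in both 24 h libraries and at 5 CPM or more in every control, was found for 11 genes. Of the 11, 10 were called, again after a choice on the same libraries. Their mean control level was 6.03 to 18.9 CPM. With limits of 0.5 and 2 CPM these counts were 58 and 31.

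Among tested genes, 225 had no count in any control and 29 of them were called, beside 7.59% of all tested genes. Genes without a count in a group passed the filter through other libraries alone, so the direction of their calls was fixed by the choice. In 25 of these 29, both 24 h libraries held at least 10 counts. The highest had 539 and 650 counts at 24 h, or 21.2 CPM, and none in the controls. With 3 counts over the control group as the floor, it was at least 690-fold higher at 24 h. In the other direction, 477 genes had no count in either 24 h library, 64 of them were called, and 38 of the 64 held at least 10 counts in every control. The highest of these 38 held 49 to 400 counts in the controls and was at least 157-fold lower at 24 h. The floor covers counting error only.

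Of the risen genes, 4 were called although 1 of the 24 h libraries lay within or below the range of the controls. The most extreme had 0.112 CPM in 24 h replicate 1 and 1095 CPM in 24 h replicate 2, against 0.237, 0.407 and 0.0671 CPM in the controls. In counts this is 3 against 32821. The 0.5 h and 1 h libraries held 1 to 13 counts. So 1 library of 11 carried the transcript, where the median of all tested genes was 6.24 CPM. The fitted log2 fold change was 11.11 with an SE of 2.17 (edgeR adjusted p = 0.011), and -1.06 without 24 h replicate 2 (edgeR adjusted p = 0.79). With limma-voom the adjusted p was 0.75. In another of the 4, the levels were 0.636 and 59.6 CPM at 24 h against 0.638 to 1.69 CPM in the controls, and in the next they were 2.32 and 11.1 CPM against 0.96 to 2.35 CPM. The last had 0 and 2.20 CPM at 24 h and 0 in every control, but 0.502 to 0.908 CPM in all 6 libraries of the early times. The 4 were named here after their values were seen. Over 2-fold separated the 24 h pair in 36 risen genes (2.80%) and 19 fallen genes (1.10%), against 5.24% of tested genes. A small spread favours a call, so these lower shares follow in part from the choice of genes.

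Gene length and identifier type moved with the share called. The table gives a length per gene, in a unit that it does not state. Tested genes were split into 4 equal classes by length. At a mean log2 CPM of 3 or more, 12.8% of the shortest class were called, 11.6% and 8.90% of the next 2 and 6.98% of the longest. Over all lengths, 9.20% of genes with a mean log2 CPM from 3 to 5 were called, and 8.59% above 5. The median standard error in these length classes was 0.16 to 0.18. The median fold change of the risen genes was larger in short genes, at 1.32 on the log2 scale in the shortest class and 0.77 in the longest. Without the limit on abundance the shares were 6.83%, 8.95%, 7.79% and 6.78%, beside 7.59% of all tested genes. Genes listed as newGene, the table's other type of identifier, made up 31.2% of tested genes, 23.0% of the risen and 25.9% of the fallen. By class of mean log2 CPM from lowest to highest, 1.29%, 2.36%, 3.02% and 7.29% of the newGene type rose, beside 1.87%, 3.38%, 3.79% and 5.48% of PH01 genes. In the same classes 1.63%, 5.47%, 6.41% and 2.68% of the newGene type fell, beside 2.95%, 7.02%, 5.36% and 2.87% of PH01 genes.

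Neighbours in the list of PH01 identifiers were also compared, with no test. These identifiers share a stem before the letter G, and neighbours are taken as consecutive entries of 1 stem. The table does not state that this follows the genome. Among risen genes with a tested neighbour, 103 of 889 (11.6%) had a neighbour that also rose, against 5.91% of all 24119 tested genes with a tested neighbour. Among fallen genes it was 95 of 1123 (8.46%), against 7.26%, a share near that of all tested genes. Of 19227 tested neighbour pairs, 55 rose together, 49 fell together and 53 moved in opposite directions. The longest run of risen genes held 4 genes and the longest run of fallen genes 3. Near-identical copies that share reads could not be told apart in these pairs, and their part in the shares was not tested.

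The sets called at 24 h had medians nearer to the control than to the 24 h level at the early times. The 278 genes that rose by more than 2-fold had a median of 2.52 to 3.53 CPM in the controls, 4.18 to 7.02 CPM at 0.5 h, 4.68 to 5.39 CPM at 1 h and 25.9 CPM in both 24 h libraries. The 192 genes that fell by more than 2-fold had medians of 4.04 to 4.72 CPM in the controls, 3.66 to 3.98 CPM at 0.5 h, 3.33 to 3.96 CPM at 1 h, and 0.561 and 0.600 CPM at 24 h. Both sets were chosen on the 24 h and control libraries, and all times share these controls, so the early levels are a description with no test. Set directly against the early times, 24 h differed from 1 h in 3851 genes (9.71% of those tested), 1844 higher (4.65%) and 2007 lower (5.06%), by the same edgeR test and threshold. It differed from 0.5 h in 2007 genes (5.06%), 746 higher (1.88%) and 1261 lower (3.18%).

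**Figure D4:**
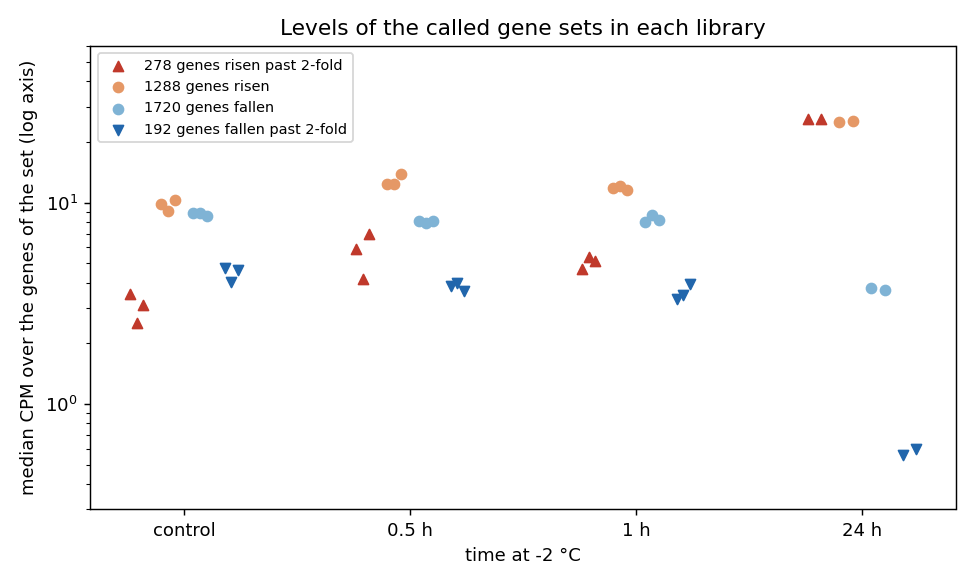
Median CPM, on a log axis, of 4 sets of genes called at 24 h against control, in each library by time at -2 °C. Each point is a library. The 278 genes risen past 2-fold lie at 2.52 to 3.53 CPM in the controls and at 25.9 CPM at 24 h, and the 0.5 h and 1 h points lie in between.

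A core of calls held under every alternative run. In each of the 5 fits that left out a 24 h or control library, 775 of the 3008 genes were called in the same direction, 405 higher and 370 lower. Over all 20 alternatives it was 733 genes (24.4%), 397 higher and 336 lower. DESeq2 called 2995 of the 3008 in the same direction. With library size alone 2574 were, and with limma-voom 2255. All called genes that were tested kept their sign in these alternatives, except 3 genes in the fit without 24 h replicate 2.

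**Figure D5:**
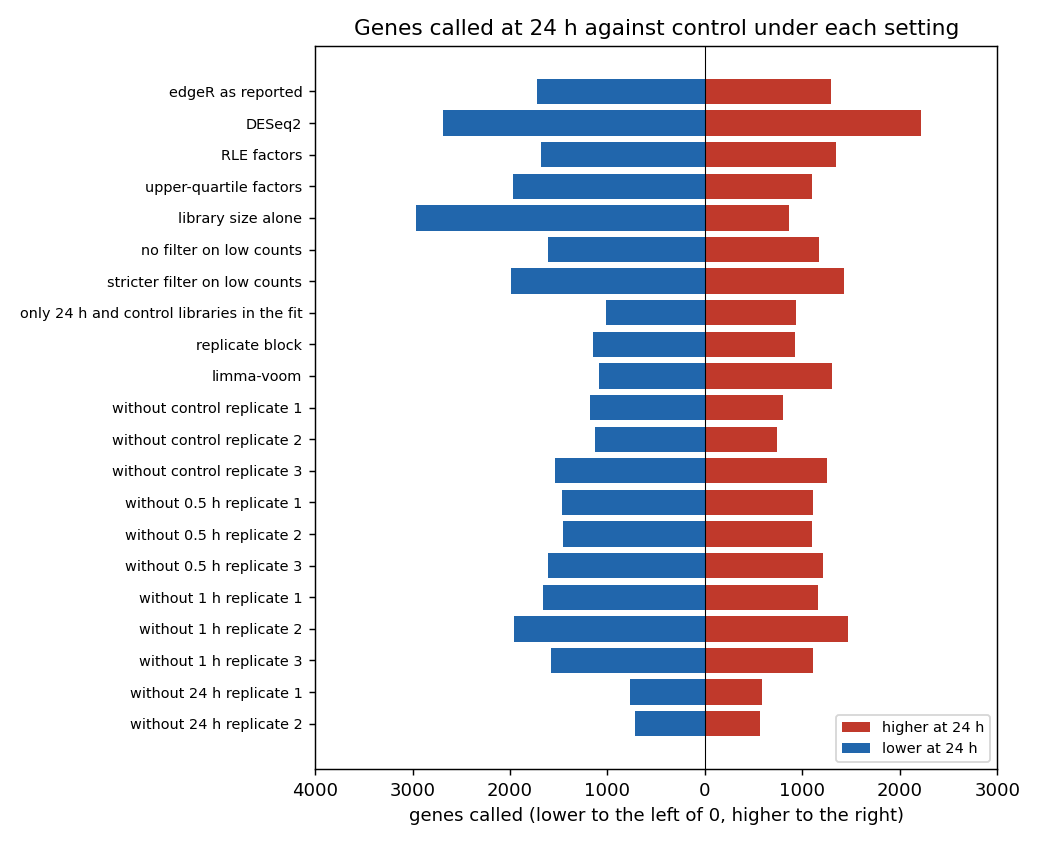
Genes called lower (blue, to the left of 0) and higher (red, to the right) at 24 h against control under each setting, in numbers of genes. The count is 3008 as reported, 1281 and 1357 without a 24 h library and 4899 with DESeq2, and library size alone shifts the calls to the lower side.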

How the data were processed

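RNA was sequenced from 3-week-old moso bamboo seedlings. Per the labels' protocols, an RNeasy kit was used for total RNA, followed by NEBNext Ultra RNA library preparation. Strand is not stated. Per the submitters' processing notes, HISAT2 was used. Its version, the counting tool, the genome build and the annotation were not given in the sources used here. Counts in the table deposited by the authors are raw and per gene, read as such because they are whole numbers with a different total in each column. How reads that match several genes were counted is not given, so near-identical copies and overlapping genes are uncertain.

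Each column was tied to a sample through the code that stands in the description label. That held for 11 columns. Of the rest, 1 column of counts matched no label and was not used, and 24 h replicate 3 was not analysed here. If the table's codes were assigned independently, that column could be a 24 h library and the replicate numbers at 24 h would shift. No pair of 24 h or control libraries agreed within sampling noise (chi-square per degree of freedom 25.9 to 30.1). P-values measure only the spread between these samples, possibly a technical one. Harvest time and batch are not labelled, and neither can be told apart from the cold where it follows the groups.

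The tools were edgeR 4.0.16, DESeq2 1.42.0 and limma 3.58.1 in R 4.3.3. Genes passed filterByExpr, counts were scaled with TMM factors, and a single quasi-likelihood fit with group means took all 11 libraries (7 residual and 3.86 prior degrees of freedom). P-values were adjusted by Benjamini-Hochberg over all 39640 genes. A standard error is the fitted log2 change over the root of its F statistic. glmTreat used a 2-fold limit. The scripts were tested on simulated data. Named genes were the largest log2 fold change and the largest difference in mean CPM in each direction among called genes at a mean log2 CPM of 3 or more whose groups did not overlap, which allowed 4 identifiers, since the table pairs none with names. Gene lists needed names and were not tested. The members, rules and lists were chosen with earlier results of these data known.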

Additional observations from a re-analysis of the deposited data

Results flagged for a closer look

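Except where stated, each difference below passed edgeR's test of the difference between times itself, at an adjusted p under 0.05. The controls cancel in these contrasts. Groups of 2 or 3 libraries were too small to test a single library as an outlier.

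Between 24 h and 1 h, the change relative to control differed for 3851 genes (9.71% of those tested), 1844 higher and 2007 lower at 24 h. Between 24 h and 0.5 h it differed for 2007 genes (5.06%), 746 higher and 1261 lower at 24 h. PH01001480G0410 was higher at 24 h by 7.18 (SE 0.59, edgeR adjusted p = 8.1e-05) against 1 h and by 7.49 (SE 0.60, edgeR adjusted p = 7.8e-05) against 0.5 h, on the log2 scale. PH01000236G0450 was higher by 1.04 against 1 h (SE 0.17, edgeR adjusted p = 0.0048), while its log2 difference of 0.56 against 0.5 h did not pass (SE 0.17, edgeR adjusted p = 0.0878). PH01000320G0510 had log2 differences of -4.08 against 1 h (SE 0.27, edgeR adjusted p = 2.3e-05) and -4.44 against 0.5 h (SE 0.27, edgeR adjusted p = 2.2e-05). PH01001888G0390 had log2 differences of -1.38 against 1 h (SE 0.31, edgeR adjusted p = 0.022) and -1.31 against 0.5 h (SE 0.31, edgeR adjusted p = 0.037).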

How the results depend on the processing

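Against 3008 calls (1288 higher, 1720 lower, 42.8% higher), DESeq2 gave 4899 (2213 higher, 2686 lower, 45.2%), limma-voom 2392 (1304 higher, 1088 lower, 54.5%), the fit of only the 24 h and control libraries 1948 (934 higher, 1014 lower, 47.9%), upper-quartile factors 1097 higher and 1968 lower (35.8%), and library size alone 858 higher and 2963 lower (22.5%). Leaving out 1 library gave 1281 to 3429 calls, 565 to 1471 higher and 716 to 1958 lower, with 39.5% to 44.7% higher. With 1 of the 24 h replicates left out, the lone library is taken to vary as the other groups do. The count of changes over 2-fold (470) ran from 318 to 464 without 1 library and from 371 to 529 under the other alternatives; it was not run with limma-voom. Genes below 0.5 CPM in one group and at 2 CPM or more in the other numbered 58 switched on (43 with the stated limits) and 31 shut off (11).

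With the replicate number as a block, 2075 genes were called, 923 higher and 1152 lower, and 1972 of the 3008 calls were kept in the same direction. The deviations of same-numbered 24 h and control libraries from their group means correlated at -0.029 and -0.004. Differently numbered pairs gave -0.024 to 0.029. With 2 libraries at 24 h, the deviations of one mirror those of the other, so these values cannot decide whether samples were paired. Each named gene was called with the block.

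The log2 fold change without 1 library was 9.15 to 11.84 for PH01001480G0410, 0.64 to 0.93 for PH01000236G0450, -4.80 to -4.33 for PH01000320G0510 and -1.70 to -1.41 for PH01001888G0390, and no named gene changed sign. Below a mean log2 CPM of 1 the median standard error was 0.73 and no change under 2.04-fold was called; the part of depth in this was not tested. The causes of these shifts were not tested.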
